A study of Mus musculus with 18 samples.

Results

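The cells described here were germ cell-like cells made in culture from a male mouse embryonic stem (ES) cell line that carries a Stella-GFP transgene on a bacterial artificial chromosome. They were set against undifferentiated GFP-positive ES cells of the same line. The comparison used 4 of the 18 arrays of the series, chosen by their labels. The 2 day 7 samples were GFP-positive cells sorted by flow cytometry after 7 days in differentiation medium on gelatin, once feeder cells had been depleted. The 2 ES samples were GFP-positive cells sorted from undifferentiated cultures grown with Lif on feeder fibroblasts. The labels give all samples as male and of a mixed C57BL/6 129SV background, and sex was not checked in the data. The other arrays, 2 per group, held the GFP-negative ES cells of this line, and the same 2 kinds of ES cells and the day 12 and day 16 GFP-positive cells of a Dazl-GFP line. They also held Dazl-GFP-positive germ cells of E13.5 gonads and of juvenile testes (postnatal day 7 to 11). Labels do not say whether the 2 samples of a group came from separate cultures, so p-values measure only the spread between these samples, which may be technical.

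Primordial germ cells are the embryonic precursors of eggs and sperm. In mouse they arise from the epiblast under BMP signals, are specified through PRDM1, PRDM14 and TFAP2C, and keep several pluripotency factors active while they migrate to the gonad. There, DAZL, an RNA-binding protein, allows them to take up the later germ cell programme, and the genes of meiosis and of the piRNA pathway, which silences transposons, follow. Stella is the protein of Dppa3, a maternal factor that protects DNA methylation in the early embryo. It is expressed in early germ cells and in part of the cells of an ES culture.

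At day 7, Dazl and Kit, the germ cell genes chosen to mark these cells, were both higher. Dazl stood at 1.63 and 1.61 in day 7 cells, against -2.75 and -2.71 in GFP-positive ES cells. These levels, like all below, are log2 signals relative to the array's 75th percentile, and levels of different probes are not comparable. Both day 7 arrays lay far above both ES arrays, and the gap was 4.35 ± 0.16 on the log2 scale (SE), a 20.4-fold difference (adjusted p = 1.91e-07). A second Dazl probe gave 3.90. Kit, the receptor for KIT ligand on which migrating germ cells depend, stood at 2.48 and 2.49 in day 7 cells, against 0.41 and 0.77 in ES cells, a 3.72-fold rise (log2 fold change 1.89 ± 0.22, adjusted p = 0.000301). Both calls held when each array was left out in turn and under every other setting tried. In these bulk samples, more cells expressing a gene and more RNA of it per cell cannot be told apart.

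Dppa3 itself, whose reporter was used to sort both groups, stood at 5.35 and 5.51 in day 7 cells, against 5.15 and 5.34 in ES cells. The 4 arrays lay close together, and the difference of 0.19 ± 0.35 was not called (adjusted p = 0.755). Since the sort selected on its reporter, this describes the gate. GFP-negative ES cells of the line had 2.60 and 2.63. The samples are labelled as primordial germ cells made in vitro, and of the other genes that define such cells Ddx4, Prdm1, Tfap2c, Nanos3 and Ifitm3 were not called.

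**Figure D1:**
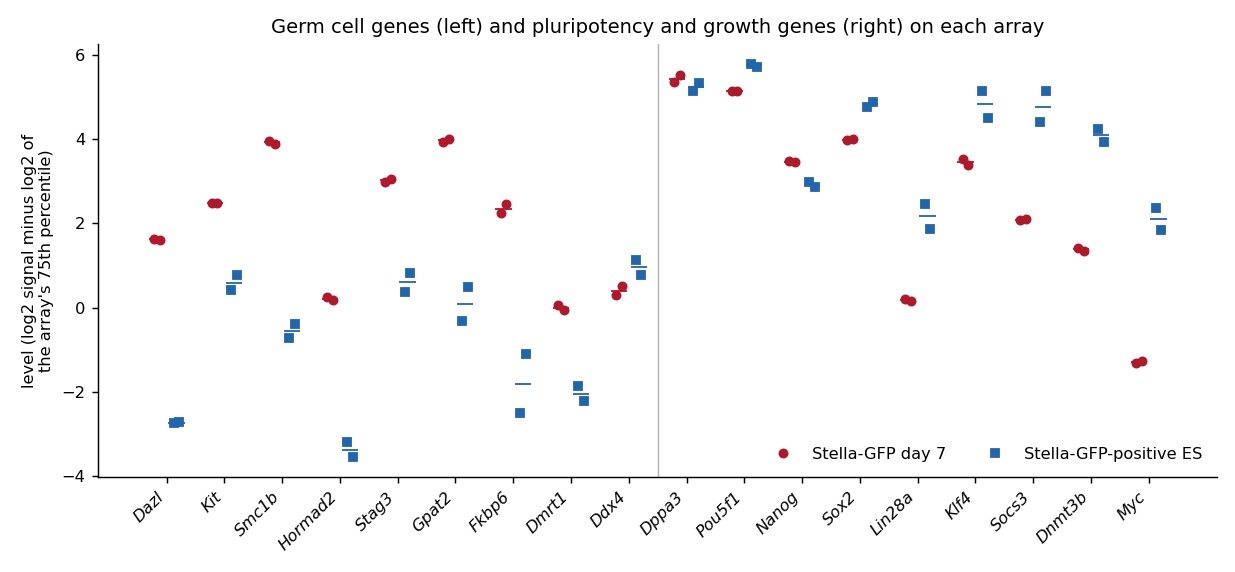
Level of 18 genes on each array, as log2 signal relative to the array's 75th percentile (y axis), in the 2 day 7 samples (red circles) and the 2 GFP-positive ES samples (blue squares); short lines are group means. Germ cell genes on the left lie higher at day 7 except Ddx4, and on the right Socs3, Dnmt3b, Lin28a and Myc lie lower while Dppa3 lies close to its ES level.

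Across the whole array, 18876 genes were tested, and 3891 (20.6%) passed limma's test at an adjusted p (Benjamini-Hochberg) below 0.05. Of these, 1438 (7.62% of all tested) were higher at day 7 and 2453 (13%) lower. The median gene was lower by 0.147, so small falls are to be read against that shift. The 2 day 7 arrays did not overlap the 2 ES arrays for 12954 genes (68.6%), so lack of overlap alone was common. A change of at least 2 on the log2 scale was seen in 321 of the genes called higher and 407 of those called lower. Without day 7 replicate 1 the count was 1439, and without day 7 replicate 2 it was 1717. With background corrected by the normexp method 828 genes were called, 402 higher and 426 lower, and with quantile normalization 3589, 1701 higher and 1888 lower.

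The day 7 arrays were hybridised on 2 slides of their own, scanned on a day of their own and read with another scanner extraction protocol than the 16 other arrays, so slide, scan and group cannot be told apart here. The array's 75th percentile signal was 290 and 321 for day 7 and 178 and 122 for ES cells, and 53.7% and 53.9% of spots were well above background at day 7, against 56.4% and 52.4% in ES cells. Replicates correlated at 0.994 at day 7 and 0.98 in ES cells across genes. The lowest such value, 0.943, was that of the E13.5 gonad pair. Its replicates 1 and 2 differed in Figla, a gonadal germ cell gene (0.84 and -5.46). They also differed in the log2 of the summed signals of retinoic acid pathway genes (8.9 and 3.79). The cause of this difference was not tested. The pair is in no comparison here, but the spread of all 9 groups enters the shared error, and without replicate 1 of it 5694 genes were called. The count was the same without replicate 2, since leaving out either array removes the same spread.

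**Figure D2:**
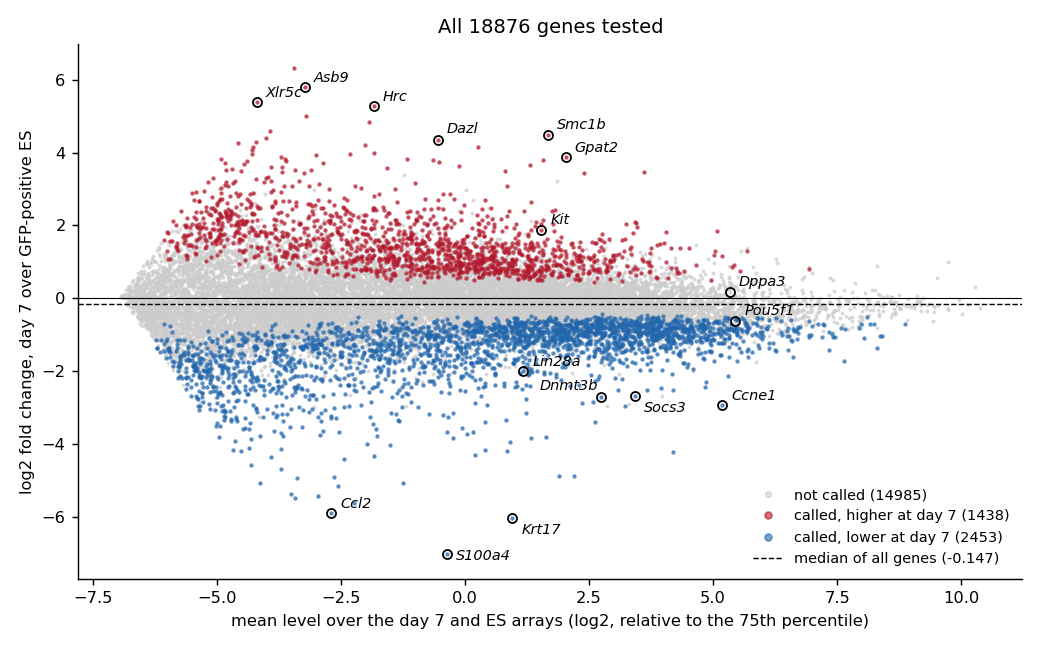
Log2 fold change of day 7 over GFP-positive ES cells (y axis) against the mean level over the 4 arrays (x axis, log2 relative to the 75th percentile) for 18876 genes. Red points are the 1438 genes called higher, blue the 2453 called lower and grey the rest; the dashed line is the median of all genes, -0.147.

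Genes of gonadal germ cells were called on the higher side alone. Of 27 listed, 25 were tested, of which 9 were called higher and 0 lower, with a median change of 1.21, beside 7.62% of all genes higher and a median of -0.147. Dmrt1, a transcription factor of the germ line and testis, stood at 0.05 and -0.05 in day 7 cells, against -1.86 and -2.23 in ES cells (2.05 ± 0.21, adjusted p = 0.000142). Sohlh2, a transcription factor of spermatogonia and oocytes, stood at 1.44 and 1.33 at day 7, against -0.82 and -0.35 in ES cells (1.97 ± 0.30, adjusted p = 0.00128). Both genes lay higher on each day 7 array than on either ES array. Stk31, a germ cell kinase-like gene, had 0.17 and 0.04 at day 7, against -1.85 and -2.23 in ES cells (2.15 ± 0.26, adjusted p = 0.000343). The CPEB1 protein controls translation of stored mRNAs in oocytes, and its gene Cpeb1 had 0.78 and 0.61 at day 7, against -1.43 and -2.17 in ES cells (2.49 ± 0.37, adjusted p = 0.00111).

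Other genes of the gonadal programme were not called. Ddx4, the VASA helicase that marks germ cells once they reach the gonad, had 0.30 and 0.50 at day 7 and 1.14 and 0.77 in ES cells, a difference of -0.55 ± 0.23 that missed the threshold (adjusted p = 0.111). Mael, of the piRNA machinery, differed by 0.32 ± 0.35. Stra8, the gene through which retinoic acid opens meiosis, had 3.45 and 3.48 at day 7, against -1.02 and 1.5 in ES cells. The day 7 values lay close together while the ES pair was far apart, and the difference of 3.23 ± 1.73 was not called (adjusted p = 0.21). Without E13.5 replicate 1, Stra8 was called (adjusted p = 0.0157). Of the 25 gonadal germ cell genes, 5 were not well above background in either group. The counts higher and lower became 5 and 0 without day 7 replicate 1 or day 7 replicate 2, and 11 and 1 without E13.5 replicate 1. With normexp 4 were called higher, with a median of -0.2, and the call of Stk31 was lost (adjusted p = 0.0652).

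Among meiosis genes, 6 of 23 were called higher and 1 lower, with a median of 1.22, beside 7.62% of all genes higher and 13% lower. Subunits of cohesin and of the chromosome axis were among those that rose. Smc1b, the meiotic cohesin subunit, had 3.95 and 3.89 in day 7 cells, against -0.73 and -0.40 in ES cells (4.49 ± 0.48, a 22.5-fold rise, adjusted p = 0.000202). Stag3, its partner subunit, had 2.99 and 3.06 at day 7, against 0.38 and 0.82 in ES cells (2.43 ± 0.29, adjusted p = 0.000365). Both cohesin genes kept their call in every setting tried. Hormad2, a HORMA-domain protein of unsynapsed axes, had 0.25 and 0.17 at day 7, against -3.20 and -3.55 in ES cells (3.58 ± 0.40, adjusted p = 0.000241), though its call was lost with normexp (1.23, adjusted p = 0.0563). Hormad1, its relative, had -0.64 and -0.61 at day 7, against -2.59 and -3.62 in ES cells (2.48 ± 0.56, adjusted p = 0.0102). Its call was lost without day 7 replicate 1 (adjusted p = 0.0635), day 7 replicate 2 (0.0597) or ES replicate 2 (0.078). Tex12, of the synaptonemal complex, was not well above background on either ES array, and was at least 3.50-fold higher at day 7 (adjusted p = 0.00935). Leaving out day 7 replicate 1, day 7 replicate 2 or ES replicate 2 ended its call too (adjusted p = 0.0605, 0.0549 and 0.0636). Mlh3, a mismatch repair protein of crossing over, was the 1 gene lower (-1.06 ± 0.19, adjusted p = 0.00355), and the mean over its probes was -0.12. Sycp3, of the synaptonemal complex, missed the threshold at 1.34 ± 0.80 (adjusted p = 0.264). Counted again, higher and lower calls were 3 and 1 without day 7 replicate 1 or day 7 replicate 2, and 9 and 2 without E13.5 replicate 1. The median was 0.56 with low signals floored and -0.25 with normexp, with which 2 were called higher and the value of Tex12 was -0.41.

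Genes of the piRNA pathway counted 7 higher and 1 lower of 19, with a median of 0.57, where 7.62% of all genes were higher and 13% lower. The gonadal, meiosis and piRNA lists share members, so their counts are not separate, and 19 different genes were called higher across them. Gpat2, an outer mitochondrial membrane protein needed for piRNA production in mouse testis, had 3.94 and 4.00 in day 7 cells, against -0.32 and 0.49 in ES cells (3.88 ± 0.35, a 14.8-fold rise, adjusted p = 8.29e-05). Fkbp6, an immunophilin-like cofactor of piRNA loading, had 2.24 and 2.45 at day 7, against -2.51 and -1.11 in ES cells (4.15 ± 0.51, adjusted p = 0.000387). The ES values of Fkbp6 lay apart, but both were far under both day 7 values. Mov10l1, the helicase that delivers piRNA precursors, was higher by 2.34 ± 0.38 (adjusted p = 0.00197), and Rnf17, a Tudor domain protein of germ cells, by 1.89 ± 0.31 (adjusted p = 0.00213). Tdrd1, another Tudor domain protein, was lower instead, at -3.18 and -3.19 in day 7 cells, against -1.27 and -1.69 in ES cells (-1.70 ± 0.27, adjusted p = 0.00158), and the mean over its probes was -0.36. Higher and lower calls numbered 7 and 2 without E13.5 replicate 1. The median was 0.27 with low signals floored and -0.19 with normexp. Normexp left 3 of the 19 higher and ended the calls of Mov10l1 (0.23) and Tdrd1 (-0.94), and with only the 4 arrays compared in the fit Rnf17 had an adjusted p of 0.055.

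Genes that act in germ cells earlier in the embryo are set beside all genes, of which 7.62% were higher and 13% lower. Of 19 early germ cell genes tested, 2 were called higher, near that share, and 0 lower, with a median of 0.06. The 2 were Kit and Itgb3, an integrin subunit (1.45 ± 0.40, adjusted p = 0.0262), whose call was lost without ES replicate 1 (0.18) or day 7 replicate 1 (0.106) or day 7 replicate 2 (0.123). Prdm1, the repressor of the somatic programme, had 1.05 and 0.97 at day 7, against 0.01 and -0.09 in ES cells. The arrays did not overlap, but the difference of 1.04 ± 0.42 missed the threshold (adjusted p = 0.0982, and 0.0221 without E13.5 replicate 1). Tfap2c, a transcription factor of the same network, had 3.92 and 3.98 at day 7 and 3.92 and 4.77 in ES cells (-0.39 ± 0.33, adjusted p = 0.426). Nanos3, an RNA-binding protein that keeps germ cells alive, had -0.38 and -0.44 at day 7 and 0.36 and 0.12 in ES cells (-0.65 ± 0.70, adjusted p = 0.554). Ifitm3, the cell surface protein fragilis of nascent germ cells, had 4.23 and 4.37 at day 7 and 5.24 and 5.17 in ES cells (-0.91 ± 0.30, adjusted p = 0.0518, and 0.00312 without E13.5 replicate 1). For the whole list, higher and lower calls came to 1 and 0 without ES replicate 1 or day 7 replicate 1 or day 7 replicate 2, and 3 and 2 without E13.5 replicate 1.

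The promoters of 4 of the germ cell genes called higher are given here because many germ cell genes are held silent in somatic and ES cells by DNA methylation and by repressors that bind at their start sites. Each line is the 250 bases before the first start site of the gene in RefSeq annotation of mouse build GRCm38.p6, read on the strand of the gene. Capitals mark CACGTG, the E-box core that MAX and MGA bind, or TCCCGC, the core that E2F6 binds, on either strand (GCGGGA on the other strand). Dazl lies at chr17:50293621-50293870 (- strand), Stag3 at chr5:138280259-138280508 (+), Smc1b at chr15:85131958-85132207 (-) and Hormad1 at chr3:95559427-95559676 (+).
Dazl: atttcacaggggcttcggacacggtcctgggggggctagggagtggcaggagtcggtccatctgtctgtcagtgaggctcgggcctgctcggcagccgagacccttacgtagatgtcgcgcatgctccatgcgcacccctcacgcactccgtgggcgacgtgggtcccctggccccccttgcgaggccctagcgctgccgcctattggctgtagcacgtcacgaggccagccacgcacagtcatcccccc
Stag3: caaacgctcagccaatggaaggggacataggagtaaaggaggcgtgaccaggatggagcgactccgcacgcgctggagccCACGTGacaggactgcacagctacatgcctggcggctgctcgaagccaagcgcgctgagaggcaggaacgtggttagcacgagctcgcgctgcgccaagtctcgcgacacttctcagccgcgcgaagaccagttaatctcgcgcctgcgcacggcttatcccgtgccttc
Smc1b: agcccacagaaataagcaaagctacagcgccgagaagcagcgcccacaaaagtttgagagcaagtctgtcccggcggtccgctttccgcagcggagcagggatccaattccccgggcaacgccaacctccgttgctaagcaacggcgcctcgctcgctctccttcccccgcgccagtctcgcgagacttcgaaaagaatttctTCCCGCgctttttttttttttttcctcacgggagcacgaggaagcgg
Hormad1: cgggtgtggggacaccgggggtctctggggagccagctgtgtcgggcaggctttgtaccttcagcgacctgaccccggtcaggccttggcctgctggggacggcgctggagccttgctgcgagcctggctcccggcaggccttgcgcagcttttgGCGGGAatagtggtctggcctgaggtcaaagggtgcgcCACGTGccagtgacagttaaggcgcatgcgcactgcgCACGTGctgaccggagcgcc
Hormad1 held 2 copies of CACGTG and 1 of TCCCGC, Stag3 1 of CACGTG, Smc1b 1 of TCCCGC and Dazl neither. Dazl held 20 CpG pairs, Stag3 26, Smc1b 25 and Hormad1 19. Of 19 genes called higher on the gonadal, meiosis and piRNA lists, 17 had a promoter in the table, and 7 of these (41.2%) held CACGTG. Of 38 members not called, 32 had one, and 8 (25.0%) held CACGTG, while among all 27025 promoters 6.0% did. TCCCGC was found in 4 of the 17 (23.5%), in 11 of the 32 (34.4%) and in 16.9% of all promoters. The median number of CpG pairs was 19, 14 and 6 in these sets. Neither motif overlaps the other within these 4 promoters, and no test was made of these shares. A match is a string of letters and not a bound site.

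**Figure D3:**
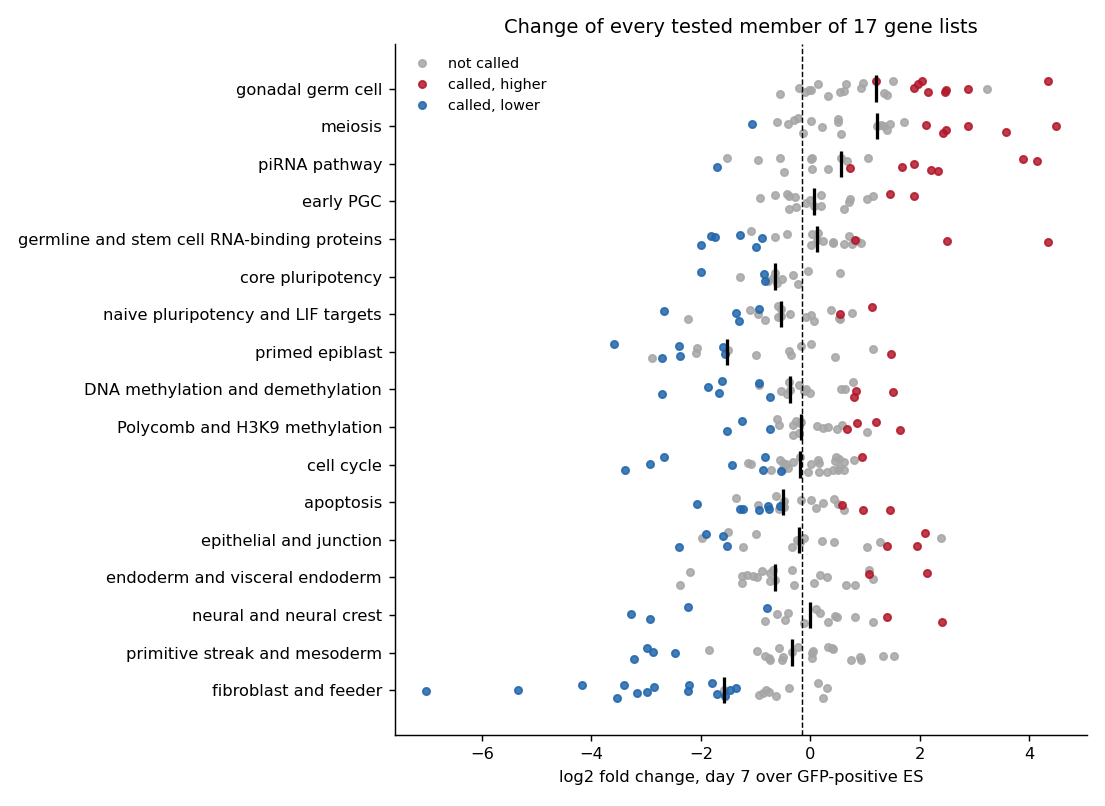
Log2 fold change of day 7 over GFP-positive ES cells (x axis) for every tested member of 17 gene lists (1 line each); red and blue are members called higher and lower, grey those not called, the black bar is the median of the list and the dashed line the median of all genes. Germ cell, meiosis and piRNA lists reach to the right and the fibroblast and feeder list to the left.

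Of 14 core pluripotency genes tested, 0 were called higher and 3 lower (7.62% of all genes were higher and 13% lower), with a median of -0.64. Pou5f1, the factor OCT4, had 5.14 and 5.15 in day 7 cells and 5.79 and 5.72 in ES cells, a difference of -0.61 ± 0.62 (adjusted p = 0.529). Nanog had 3.47 and 3.45 at day 7 and 2.98 and 2.86 in ES cells (0.54 ± 0.49, adjusted p = 0.476, and 0.0448 without E13.5 replicate 1). The arrays of the groups did not overlap for either gene, in opposite directions, and neither difference was called. Sox2, partner of OCT4, had 3.97 and 4.00 at day 7, against 4.77 and 4.89 in ES cells (-0.84 ± 0.26, adjusted p = 0.0391). Its call was lost with any 1 of the 4 arrays left out (adjusted p = 0.0912 without ES replicate 1, 0.142 without ES replicate 2, 0.166 without day 7 replicate 1 and 0.14 without day 7 replicate 2) and with quantile normalization (-0.45). Lin28a, the RNA-binding protein that blocks let-7 maturation, fell in every setting tried, with 0.21 and 0.15 at day 7, against 2.47 and 1.87 in ES cells (-1.99 ± 0.37, adjusted p = 0.00383). Leaving out 1 array, the calls higher and lower were 0 and 1 without ES replicate 1 or ES replicate 2 or day 7 replicate 1 or day 7 replicate 2, and 1 and 6 without E13.5 replicate 1.

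Of 22 naive pluripotency genes and LIF targets, 2 were called higher and 4 lower, with a median of -0.54. Over all genes 7.62% were higher and 13% lower, so the counts of this list lie near those of all genes. Pim1, a kinase that LIF induces, was called higher (1.13, adjusted p = 0.0103), as was Tbx3, a naive transcription factor (0.54, adjusted p = 0.0367). Socs3, the feedback inhibitor of LIF signalling, had 2.07 and 2.10 in day 7 cells, against 4.4 and 5.14 in ES cells (-2.68 ± 0.42, adjusted p = 0.00152). Klf4, a naive transcription factor, had 3.53 and 3.39 at day 7, against 5.15 and 4.5 in ES cells (-1.36 ± 0.24, adjusted p = 0.00319). Stat3, the transcription factor LIF activates, had 0.97 and 0.82 at day 7, against 2.20 and 2.21 in ES cells (-1.31 ± 0.29, adjusted p = 0.00893), a call lost without day 7 replicate 2 (0.065). Esrrb, another naive factor, had 3.33 and 3.49 at day 7 and 3.85 and 4.04 in ES cells (-0.53 ± 0.31, adjusted p = 0.244). The day 7 cells were grown in differentiation medium and the ES cells with Lif, so medium and group cannot be told apart. The counts higher and lower became 1 and 3 without ES replicate 1, 0 and 3 without ES replicate 2 or day 7 replicate 1, 0 and 2 without day 7 replicate 2, and 3 and 9 without E13.5 replicate 1. With normexp 0 were called higher and 1 lower, the call of Klf4 being lost (adjusted p = 0.051), and with quantile normalization 3 and 3.

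Of 18 genes of the primed epiblast, the later state that ES cultures can enter, 1 was called higher and 6 lower, with a median of -1.53 (all genes 7.62% higher and 13% lower). Fgf15, a growth factor of the epiblast and neural plate, had -3.61 and -3.57 in day 7 cells, against -0.02 and -0.01 in ES cells (-3.58 ± 0.39, adjusted p = 0.000202). Dnmt3b, a de novo DNA methyltransferase that is induced in epiblast, had 1.42 and 1.34 at day 7, against 4.25 and 3.93 in ES cells (-2.71 ± 0.34, adjusted p = 0.000443). Grhl2, an epithelial regulator, had a change of -2.40 ± 0.24 (adjusted p = 0.000127), and Pou3f1, the factor OCT6, had 1.0 and 0.83 at day 7, against 3.18 and 3.42 in ES cells (adjusted p = 0.00088). These 4 genes kept their calls in every setting tried. Counted again, higher and lower calls were 0 and 5 without ES replicate 1 or day 7 replicate 1 or day 7 replicate 2, and without ES replicate 1 the median was -0.75.

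Of 21 genes of DNA methylation and demethylation, 3 were called higher and 6 lower, Dnmt3b among them, with a median of -0.37 (all genes 7.62% higher and 13% lower). Those higher were Gadd45b (1.51, adjusted p = 0.00901), Uhrf2 (0.80, 0.0167) and Mbd1 (0.83, 0.0336), and each lost its call without either day 7 array. Tdg, the glycosylase that removes oxidised methylcytosine, had -0.30 and 0.23 in day 7 cells, against 1.58 and 1.68 in ES cells (-1.66 ± 0.21, adjusted p = 0.000443). Dnmt3l, the cofactor of the de novo enzymes, had 4.05 and 3.94 at day 7, against 5.52 and 5.72 in ES cells (-1.62 ± 0.40, adjusted p = 0.0148). Its call was lost without ES replicate 2 (0.0724), day 7 replicate 1 (0.0729) or day 7 replicate 2 (0.0843). Uhrf1, which recruits the maintenance enzyme, had 3.23 and 3.32 at day 7, against 4.15 and 4.29 in ES cells (-0.94 ± 0.19, adjusted p = 0.0064), a call lost without day 7 replicate 1 (0.0588). Higher and lower calls numbered 1 and 5 without ES replicate 1, 0 and 3 without day 7 replicate 1, 0 and 4 without day 7 replicate 2, and 5 and 8 without E13.5 replicate 1.

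Polycomb and H3K9 methylation genes went both ways, with 4 of 21 called higher and 3 lower, beside 7.62% and 13% of all genes. Eed, a core subunit of the PRC2 complex, had 3.15 and 3.07 in day 7 cells, against 4.66 and 4.61 in ES cells (-1.52 ± 0.19, adjusted p = 0.000421). Ehmt1, the H3K9 methyltransferase GLP, was lower by a change of -1.24 ± 0.20 (adjusted p = 0.00198). Suz12, another PRC2 subunit, had 3.83 and 3.87 at day 7, against 3.09 and 2.88 in ES cells (0.86 ± 0.22, adjusted p = 0.0187). The call of Suz12 was lost without ES replicate 2 (0.0967), day 7 replicate 1 (0.0926) or day 7 replicate 2 (0.0981), whereas Eed kept its own in every setting tried and Ehmt1 lost its call with normexp (0.0883). For the whole list, higher and lower calls came to 2 and 3 without ES replicate 1, 2 and 2 without ES replicate 2, and 1 and 2 without day 7 replicate 1 or day 7 replicate 2. With normexp 1 was called each way.

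RNA-binding proteins of germ cells and stem cells split into 3 called higher and 6 lower of 24, with a median of 0.13 (all genes 7.62% higher and 13% lower). Dazl and Cpeb1, the 2 with a germ cell role among those higher, are given above with Lin28a. Lin28b, the second let-7 blocker, had -0.84 and -0.92 in day 7 cells, against 1.21 and 0.51 in ES cells (-1.74 ± 0.26, adjusted p = 0.00109), and the mean over its probes was -0.94 (adjusted p = 0.276). Igf2bp1, an mRNA-stabilising protein, had 3.80 and 3.74 at day 7, against 4.91 and 4.62 in ES cells (-1.0 ± 0.26, adjusted p = 0.0219), a call lost without ES replicate 1 (0.112), day 7 replicate 1 (0.0981) or day 7 replicate 2 (0.11). The remaining called members were Igf2bp3 (0.81), Msi1 (-1.29), Msi2 (-1.82) and Tial1 (-0.89), whose calls were lost without day 7 replicate 1 (adjusted p = 0.196, 0.213, 0.0781 and 0.172) and without ES replicate 2 (0.266, 0.0548, 0.105 and 0.162). Leaving out 1 array, the calls higher and lower were 2 and 3 without ES replicate 2 or day 7 replicate 2, 2 and 2 without day 7 replicate 1, and 5 and 7 without E13.5 replicate 1. With normexp 3 were higher and 2 lower.

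Of 33 cell cycle genes, 1 was called higher and 7 lower, with a median of -0.19, close to that of all genes, of which 7.62% were higher and 13% lower. The gene called higher was Cdkn1b, the cyclin-dependent kinase inhibitor p27 (0.94, adjusted p = 0.0275). Myc had -1.31 and -1.27 in day 7 cells, against 2.37 and 1.84 in ES cells (-3.39 ± 0.39, adjusted p = 0.000296), and its other probes gave -3.08 and -2.50. Ccne1, cyclin E1, had 3.70 and 3.74 at day 7, against 6.52 and 6.79 in ES cells (-2.93 ± 0.26, adjusted p = 7.94e-05). Ccnd1, cyclin D1, had -1.06 and -0.98 at day 7, against 1.77 and 1.53 in ES cells (-2.67 ± 0.45, adjusted p = 0.00239). These 3 kept their calls in every setting tried. The counts higher and lower became 0 and 5 without ES replicate 1, 0 and 3 without day 7 replicate 1 or day 7 replicate 2, and 3 and 8 without E13.5 replicate 1. With quantile normalization 6 members were called higher and 5 lower, and with normexp 0 and 3.

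Of 25 apoptosis genes, 3 were called higher and 7 lower, with a median of -0.49 (all genes 7.62% higher and 13% lower). Those higher were Casp6, an executioner caspase (1.45, adjusted p = 0.0329), Xiap, an inhibitor of caspases (0.97, 0.031), and Trp53inp1, a p53 target (0.58, 0.0301), and each lost its call without either day 7 array. Birc5, the inhibitor survivin, which is also needed for cell division, was lower by a change of -1.23 (adjusted p = 0.00263), and Bak1, a pore-forming death effector, by -0.76 (adjusted p = 0.00459). Both calls were kept when any 1 of the 4 arrays was left out and lost with normexp, that of Bak1 also with the mean over its probes (adjusted p = 0.0614) and with only the 4 arrays compared (0.0529). Perp, a p53 target of the cell membrane, had a change of -2.07 (adjusted p = 0.044) that no longer passed without ES replicate 1 (0.0869), ES replicate 2 (0.176), day 7 replicate 1 (0.163) or day 7 replicate 2 (0.156). Counted again, higher and lower calls were 1 and 4 without ES replicate 1, and 0 and 2 without day 7 replicate 1 or day 7 replicate 2, and with normexp 1 and 1.

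Of 25 fibroblast and feeder genes, 0 were called higher and 15 lower, with a median of -1.58, beside 13% of all genes lower. S100a4, a calcium-binding protein of fibroblasts, had -3.86 and -3.90 in day 7 cells, against 3.40 and 2.88 in ES cells, a change of -7.02 ± 0.64 (adjusted p = 8.29e-05). Col6a3, a collagen VI chain, was not well above background on either day 7 array and was at least 13.3-fold lower (adjusted p = 0.000574). Thy1, a surface antigen of fibroblasts, had -2.47 and -2.55 at day 7, against 0.45 and 0.23 in ES cells (-2.85 ± 0.50, adjusted p = 0.00287). The level summed over the list, as log2 of the summed linear signals, was 5.65 and 5.62 in day 7 cells, against 6.79 and 6.32 in GFP-positive ES cells, and 6.19 and 6.77 in GFP-negative ES cells. Within the ES pair, 22 of the 25 genes were higher on replicate 1 than on replicate 2, as were 14 of the 15 called. Of the 25, 8 were not well above background on either day 7 array, but Fn1, Sparc and Mmp2 differed by 0.23, 0.30 and 0.15. The ES cultures were grown on feeder fibroblasts, and feeders were depleted before differentiation. The part of feeder RNA in the genes called lower was not tested. With only the 4 arrays of the groups compared in the fit, 5 members were called lower, and with normexp 6.

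Markers of other cell types that differentiating ES cultures can hold were called in both directions, and the counts below stand beside 7.62% of all genes higher and 13% lower. Of 25 primitive streak and mesoderm genes, 0 were called higher and 4 lower, Tcf15, a mesoderm transcription factor, among them (-2.87 ± 0.36, adjusted p = 0.000458). Higher and lower calls numbered 0 and 2 without ES replicate 2 or day 7 replicate 1 or day 7 replicate 2. Of 23 endoderm genes, 2 were higher and 0 lower. For the whole list, higher and lower calls came to 1 and 2 without ES replicate 1, 0 and 0 without ES replicate 2 or day 7 replicate 1 or day 7 replicate 2, and 2 and 3 without E13.5 replicate 1. Of 18 neural genes, 2 were higher and 4 lower, and Pax6, an eye and forebrain factor, had -1.14 and -1.21 in day 7 cells, against -3.23 and -3.95 in ES cells (2.41 ± 0.21, adjusted p = 7.07e-05). The Pax6 call was lost with normexp (0.67, adjusted p = 0.107). Leaving out 1 array, the calls higher and lower were 2 and 2 without ES replicate 2, 1 and 1 without day 7 replicate 1, and 1 and 2 without day 7 replicate 2. Of 15 heart and muscle genes, 2 were higher and 4 lower, among them Myh6, a cardiac myosin (-2.38, adjusted p = 7.11e-05), and of 13 endothelial genes 1 was higher and 3 lower, among them Esam, an endothelial adhesion molecule (-1.64, adjusted p = 0.000393). With normexp 0 were higher and 1 lower on each of these lists, and 0 and 2 on the neural list. Of 20 epithelial and junction genes, 3 were higher and 4 lower, with a median of -0.22. The keratins Krt18, Krt8 and Krt7 of simple epithelia were higher by 2.10, 1.41 and 1.95 (adjusted p = 0.0251, 0.0468 and 0.0193). Those lower were Grhl2, given above, Ap1m2, an adaptor subunit of epithelial sorting (-1.90, adjusted p = 0.00902), Cldn6, a claudin of tight junctions (-1.60, 0.0483), and Crb3, a polarity protein (-1.53, 0.0232). Leaving out 1 of the 4 arrays left 0 or 1 of the epithelial genes higher and 1 or 2 lower. The call of Krt18 was lost with any 1 of the 4 arrays left out (adjusted p = 0.0701 to 0.11) and that of Krt8 without ES replicate 2 (0.28), day 7 replicate 1 (0.188) or day 7 replicate 2 (0.146).

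Among the 12 largest rises of genes with a symbol, only Dazl and Smc1b were members of the germ cell lists, and 8 of the 12 were not well above background on either ES array. Their fold is therefore given as a lower bound, against the lowest signal well above background or the gene's own ES signal where that is higher. For Hrc its own signal was higher on both ES arrays, so its fold is the fitted one and no bound. Asb9, a subunit of ubiquitin ligases, was at least 19.7-fold higher (-0.37 and -0.30 in day 7 cells, against -6.33 and -5.91 in ES cells, adjusted p = 0.0015). Hrc, a calcium-binding protein of the sarcoplasmic reticulum, was 38.5-fold higher (0.77 and 0.84 at day 7, against -4.55 and -4.38, adjusted p = 0.00127). Its log2 fold change was 5.27, and 1.55 with normexp (adjusted p = 0.0117). Xlr5c, of an X-linked family of near-identical copies whose signals cannot be told apart, was at least 8.68-fold higher (adjusted p = 5.04e-05). The gene named Xlr5d by the array file, with no RefSeq match and picked out after its value was seen, gave 6.31. Others were Creg2, 1700080O16Rik, Igfbp5, Abcc2, Ccdc172 and Fam71e1, with fitted rises of 4.22 to 4.83, which are not bounds. The lower bounds of 1700080O16Rik, Abcc2 and Ccdc172 were 7.96-, 5.94- and 4.53-fold. With normexp the change of Asb9 was 1.17, of Xlr5c 0.43 and of Abcc2 -0.07, and none of the 3 was called. Creg2 (1.32), 1700080O16Rik (0.23), Igfbp5 (0.05), Ccdc172 (-0.13) and Fam71e1 (1.15) were not called with normexp either. The bounds given hold for the main background treatment. A second Igfbp5 probe, dim in both groups, gave 0.43.

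The 12 largest fitted falls ran from -7.02 to -4.87. Beside S100a4 and Col6a3 they held Ccl2, a chemokine, at least 28.1-fold lower (-6.05 and -5.24 in day 7 cells, against 0.84 and -0.34 in ES cells, adjusted p = 7.11e-05). Krt17, a keratin of stratified epithelia, had -2.26 and -1.85 at day 7, against 4.31 and 3.63 in ES cells (-6.02 ± 1.20, adjusted p = 0.00535). Inhba and Inhbb, the activin subunits, were lower, Inhba at least 20.6-fold (adjusted p = 0.00177) and Inhbb by a change of -5.06 ± 0.69 (adjusted p = 0.000682), for which a second probe gave -0.81. The others were Mmp3, Mgp, Tnc and Tm4sf1, genes of matrix and cell surface, with Nrp2, a semaphorin and VEGF co-receptor (-0.50 and -0.58 at day 7, against 4.43 and 4.22, adjusted p = 0.00166), and Ccdc116. Of the 12, 8 were not well above background on either day 7 array. With normexp the changes of Ccl2, Inhba and Col6a3 were -2.06, -1.93 and -1.51. All 3 were still called, but these falls are smaller than the bounds given, which hold for the main background treatment.

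The change at day 7 was then set against the changes of the Dazl-GFP line at day 12 and day 16, each over the GFP-positive ES cells of its own line. Line, reporter, day and array batch all differ in this comparison and cannot be told apart, here or for the genes that follow. Both differences share the Stella-GFP arrays, as each shares the Dazl-GFP ES arrays. The difference of changes was called for 733 of 18876 genes against day 12 (3.88%), 309 of them higher (1.64%) and 424 lower (2.25%), and for 601 against day 16 (3.18%), 232 higher (1.23%) and 369 lower (1.95%). Without Stella-GFP ES replicate 1 the counts were 1319 against day 12 and 779 against day 16, without E13.5 replicate 1 the counts were 1803 and 1475, and without any other array of the groups compared they were 220 to 323 against day 12 and 210 to 350 against day 16. With normexp they were 68 and 28, and with only the arrays of the groups compared 2231 and 2089. The GFP-positive ES cells of the lines also differed in the summed level of fibroblast and feeder genes. It was 8.56 and 8.52 in the Dazl-GFP line, against 6.79 and 6.32 in the Stella-GFP line. Of these 25 genes, 5 had a called higher difference against day 12 and 3 against day 16, and 0 a lower one. The part of this gap in the differences was not tested. The change of Dazl differed by 0.25 against day 12 (adjusted p = 0.607) and 0.29 against day 16, and that of Kit by -0.17 and 0.44, and none of these differences was called. The level of Dazl itself was not the same, since in the Dazl-GFP line day 12 had 4.93 and 4.81 and day 16 had 4.85 and 4.78, against 0.79 and 0.73 in its GFP-positive ES cells. The Dazl-GFP cells had been sorted on the Dazl reporter itself. The day 7 cells, at 1.63 and 1.61, stood lower than every Dazl-GFP germ cell array, including 5.42 and 5.27 at E13.5 and 4.79 and 4.98 in juvenile testes.

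Several later germ cell genes changed less at day 7. Ddx4 changed by -0.55 at day 7, against 1.57 at day 12 and 0.87 at day 16, a difference of -2.13 ± 0.32 against day 12 (adjusted p = 0.00538) and -1.42 ± 0.32 against day 16 (adjusted p = 0.0388). Mael changed by 0.32 at day 7, against 3.44 and 3.25 (difference -3.12 ± 0.50 against day 12, adjusted p = 0.00687). Slc25a31, the germ cell ADP/ATP carrier, changed by 0.62 at day 7, against 6.02 and 6.21 (difference -5.40 ± 0.50 against day 12, adjusted p = 0.000205). Sohlh2 was called higher in the comparison with ES cells and still changed less, by -2.97 ± 0.42 against day 12 (adjusted p = 0.00383). The Slc25a31 and Sohlh2 differences passed with each array left out, while the Ddx4 difference against day 16 was lost with any 1 of the 8 arrays left out (adjusted p = 0.0518 without ES replicate 2 to 0.159 without day 7 replicate 1). Klf4 had a change of -1.36 at day 7, against 0.46 and 0.26 in the Dazl-GFP line (difference -1.82 ± 0.35 against day 12, adjusted p = 0.0159), a call lost without either array of day 7, day 12 or the Dazl-GFP ES cells (adjusted p = 0.0525 to 0.072). Rftn2, a lipid raft protein, and Arhgef28, a guanine nucleotide exchange factor, rose at day 7 by 2.59 and 2.04, while the Dazl-GFP line gave -1.83 and -1.81 at day 12 (adjusted p of the differences 2.8e-05 and 3.9e-05). Both differences held with each array left out, but with normexp that of Rftn2 against day 16 was -0.16. The rise of Rftn2 over ES cells at day 7 was 0.06 with normexp and was not called (adjusted p = 0.885). That of Arhgef28 was 1.60 and was still called (adjusted p = 0.000896).

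**Figure D4:**
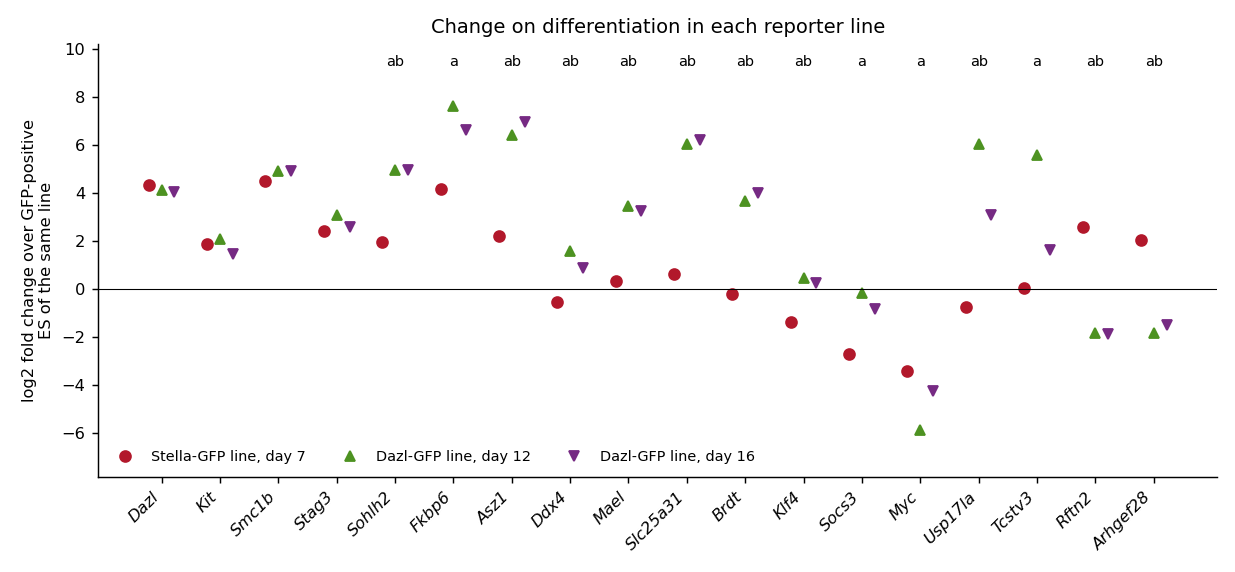
Log2 fold change over GFP-positive ES cells of the same line (y axis) for 18 genes at Stella-GFP day 7 (red circles), Dazl-GFP day 12 (green triangles) and Dazl-GFP day 16 (purple triangles); the letter a marks a called difference against day 12 and b one against day 16. Dazl, Kit, Smc1b and Stag3 lie together in the 3 changes, while Ddx4, Mael and Slc25a31 lie lower at day 7.

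**Figure D5:**
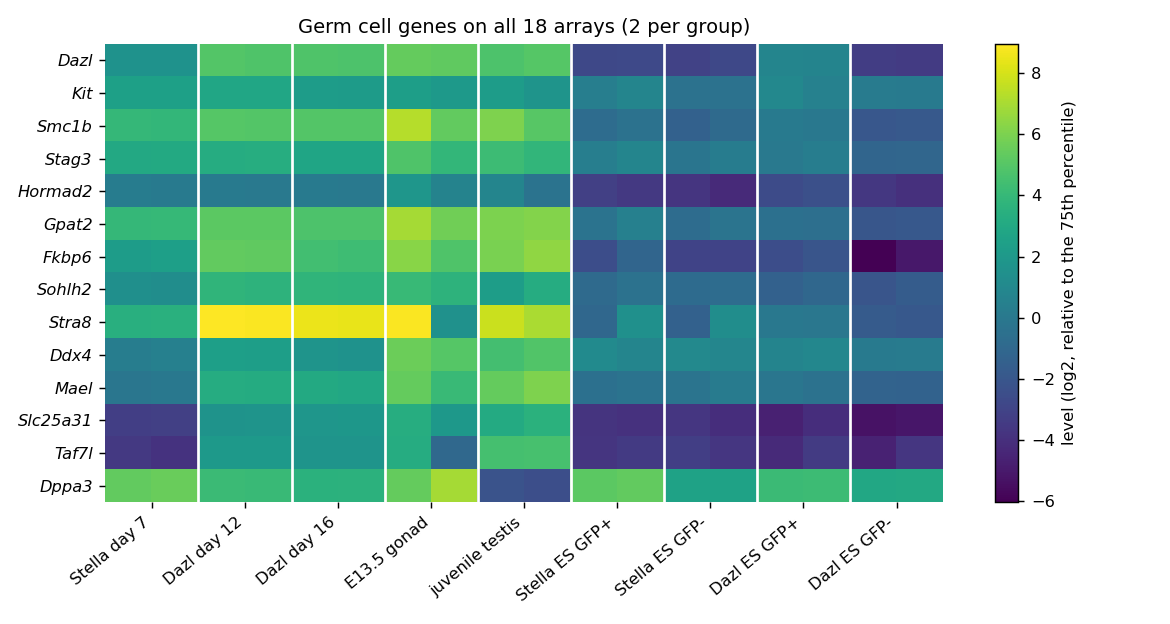
Level of 14 genes on all 18 arrays, as log2 signal relative to the array's 75th percentile (colour), with the 2 day 7 arrays at the left and 2 columns per group. Dazl, Ddx4 and Mael are higher in germ cells of E13.5 gonads and juvenile testes than at day 7, and the 2 E13.5 arrays differ from each other for Stra8 and Taf7l.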

How the data were processed

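RNA of 18 samples was hybridised to 1-colour Agilent arrays, 1 array per sample, 2 per group in 9 groups. Per the file headers, the authors' scanner files were made with Agilent Feature Extraction 9.1.3.1 and hold fluorescence intensity that was background-subtracted within the array and left on each array's own scale. A deposited table of the authors holds group means of intensity normalized to array medians, per the file headers. The files' other columns are flags.

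From the 43379 non-control spots, outliers were left out (172 probes lost) and spots averaged into 41174 probes. Log2 intensity from the deposited files minus the array's 75th percentile gave each level. Probes well above background on both arrays of at least 1 group stayed (28114). Of the probes, 22846 were named by RefSeq accession, 9721 by symbol, and 8435 kept the file's name. Where a gene had several probes (8857 genes), the probe with the highest mean level stood for the gene. The test was limma 3.58.1 in R 4.3.3 on 18876 genes and 9 groups, with 9 residual degrees of freedom, and Benjamini-Hochberg adjustment at 0.05. Where a group was dim on both arrays, a fold is a lower bound against, on each array, the higher of the lowest signal well above background and the gene's own. Files were read in R with the data.table package (version 1.17.8), and values were handled in Python 3.11.15 with numpy 2.4.6 and pandas 2.3.3. Plots came from matplotlib 3.10.9. The fit was checked on simulated data.

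Members, gene lists and tests were chosen with earlier results of these data known. The text names a fixed panel, the 12 largest changes each way with groups that do not overlap, up to 6 called genes of a list each way by smallest p, all genes of 6 lists, and up to 6 genes each way in each difference of changes. Zscan4c, Fn1, Sparc, Mmp2 and Xlr5d are named outside this rule. Alternatives changed the background correction, normalization, filter, probe rule, variance prior, call rule, blocks and the arrays in the fit. The number of arrays limits the precision. A few genes that the naming rule covers are not reported here.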

Additional observations from a re-analysis of the deposited data

Results flagged for a closer look

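The genes below were named because their change in the Stella-GFP line at day 7 differed from their change in the Dazl-GFP line, each over GFP-positive ES cells of its own line, by a test of the difference itself (limma, adjusted p below 0.05). Values in brackets are the change at day 7 minus the change in the Dazl-GFP line, on the log2 scale. A positive value can thus come from a fall in the Dazl-GFP line, and a negative one from a rise there. Line, reporter, day and array batch differ together here and cannot be told apart.

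Against day 12, the change was lower at day 7 for A430060F13Rik (-4.68), Brdt (-3.86), Ccdc116 (-1.61), Ccdc172 (-3.48), Dct (-8.83), Ddx4 (-2.13), Gm428 (-9.09), Klf4 (-1.82), Mael (-3.12), Pramel37 (-7.19), Slc25a31 (-5.4), Socs3 (-2.52), Sohlh2 (-2.97), Taf7l (-5.99), Tbx3 (-0.99), Tcstv3 (-5.54) and Usp17la (-6.79). Brdt, Dct and Gm428 were among those not well above background on any of the 4 Stella-GFP arrays compared. Slc25a31, Taf7l, Brdt and Mael are genes of germ cells, and Usp17la and Tcstv3 belong to the gene set of 2-cell-like cells. The change was higher at day 7 for Abcc2 (3.41), Angptl7 (5.08), Arhgef28 (3.85), Ccl2 (3.01), Dusp27 (3.75), Ina (6.44), Rftn2 (4.42) and Tslp (3.99). Of these, Abcc2, Arhgef28 and Rftn2 rose over ES cells at day 7 (fitted changes of 4.30, 2.04 and 2.59), Abcc2 by at least 5.94-fold. With normexp these changes were -0.07, 1.60 and 0.06, and only that of Arhgef28 was called. Angptl7, Dusp27 and Tslp changed by 0.04, 0.05 and 0.05 there, and Ccl2 and Ina fell (-5.89 and -1.39). Angptl7 was not well above background on any of the 4 Stella-GFP arrays compared. The GFP-positive ES cells of the lines differed for some of these genes. Ccl2 had 3.84 and 3.62 in those of the Dazl-GFP line, against 0.84 and -0.34 in the Stella-GFP line. Angptl7 had -1.49 and -1.72 there, against -6.48 and -6.24. Ina codes for a neuronal intermediate filament.

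Against day 16, the change was lower at day 7 for 1700080O16Rik (-3.3), Brdt (-4.22), Ccdc116 (-2.11), Ccdc172 (-3.46), Cryaa (-11.98), Dct (-9.23), Ddx4 (-1.42), Gm5128 (-5.54), Gtsf1 (-3.22), Klf4 (-1.62), Mael (-2.93), Magea1 (-6.54), Magea6 (-5.07), Slc25a31 (-5.59), Sohlh2 (-2.98), Spon1 (-5.1), Taf7l (-5.63) and Tbx3 (-1.19). Of these, 1700080O16Rik and Ccdc172 rose over ES cells at day 7 (fitted changes of 4.58 and 4.26), but less than in the Dazl-GFP line, and Ccdc116 fell (-5.46). The rises were at least 7.96- and 4.53-fold, and with normexp these changes were 0.23 and -0.13 and were not called. Brdt, Cryaa and Dct were among those not well above background on any of the 4 Stella-GFP arrays compared. Magea1 and Magea6 are members of a family of cancer-testis genes with near-identical copies, whose signals may be shared between copies. The change was higher at day 7 for Abcc2 (3.74), Angptl7 (4.99), Arhgef28 (3.52), Cdkn1a (1.35), Dennd1c (3.91), Mcpt8 (4.73), Rftn2 (4.45), Tdh (2.12) and Tslp (4.04). Over ES cells at day 7, Cdkn1a, Dennd1c, Mcpt8 and Tdh changed by 0.51, 0.69, -0.55 and -0.82, and none of these changes was called.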

How the results depend on the processing

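Counts of called genes give main comparison, difference against day 12 and difference against day 16 in that order, and the counts as reported were 3891, 733 and 601. With normexp they were 828, 68 and 28. This correction adds an offset of 50 to signals of arrays that differ in brightness, and dim genes moved most. With only the arrays of the groups compared they were 2786, 2231 and 2089. Without E13.5 replicate 1 they were 5694, 1803 and 1475, and the same without E13.5 replicate 2, a setting chosen after seeing the data. Leaving out each array of the groups compared in turn gave 1439 to 2733, 220 to 1319 and 210 to 779, the fewest in the main comparison without day 7 replicate 1 and the most against both days without Stella-GFP ES replicate 1. With 1 array left in a group, that array was taken to vary like the other groups. Quantile normalization gave 3589, 816 and 718, floored signals 3680, 908 and 854, no filter on dim probes 3240, 493 and 461, and slide as a random block 3924, 748 and 603. The median change of all genes was -0.414 with normexp and -0.034 with quantile normalization. The share of calls that were higher was 37.0% as reported, 48.6% with normexp and 47.4% with quantile normalization. Against day 12 it was 42.2% as reported and 55.0% with floored signals, and against day 16 it was 38.6% as reported, 71.4% with normexp and 56.4% with floored signals. The labels give same-numbered day 7 and ES replicates no shared source, and their deviations from the group means correlated at -0.034. With the replicate number as a block, 4014, 737 and 609 genes were called. Of 272 genes the naming rule covers, 173 were called, 82 of them with each array left out and 46 under every setting. Of these 173, 105 were matched in the authors' deposited table of group means, and 0 had the opposite sign there. That table was made from the same arrays, so it is no independent check. Signs turned for called genes with normexp in the main comparison, for Abcc2 (-0.07), Asz1 (-0.64), Bmi1 (-0.23), Ccdc172 (-0.13), Cyp26b1 (-0.55), Dpep3 (-0.42), Fabp7 (-0.62), Gata6 (-0.38), Gm5128 (-0.6), Hba-x (-0.68), Hfm1 (-0.55), Magea6 (-0.71), Plac1 (-0.61), Sox3 (-0.68), Tex12 (-0.41) and Tnnc1 (-0.54). They turned with floored signals for Hoxb4 and Hoxd13 (0.06 each) and with the mean over probes for Ncam1 (0.07). Against day 12 they turned for Hba-x (-0.08) and Tslp (-0.09) with normexp and Hoxb4 (0.35) with floored signals. Against day 16 they turned with normexp for Abcc2 (-0.53), Angptl7 (-0.86), Hba-x (-1.11), Mcpt8 (-0.84), Rftn2 (-0.16) and Tslp (-1.14), and with floored signals for Hoxb4 (0.29) and Tal1 (1.25). The cause of these turns was not tested. Genes near background carry only a bound, and 2 arrays per group limit the precision of every change.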

Other observations

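Other gene groups also held changes that passed the test with each of the 4 arrays left out. The list counts given with them stand beside 7.62% of all genes higher and 13% lower. Lama5, a laminin chain of basement membranes, had -0.46 and -0.23 in day 7 cells, against 2.65 and 2.92 in GFP-positive ES cells (-3.13 ± 0.22, adjusted p = 2.71e-05), the list holding 2 higher and 2 lower of 11. Dlk1, an imprinted gene expressed from the paternal copy, had 0.39 and 0.69 at day 7, against -1.52 and -2.29 in ES cells (2.44 ± 0.45, adjusted p = 0.00362), while Magel2, also paternally expressed, was at least 3.66-fold lower (adjusted p = 0.0017), in a list of 21 with 1 higher and 2 lower. Bmp7, a BMP ligand, had 2.23 and 2.31 at day 7, against -0.23 and 0.98 in ES cells (1.89 ± 0.35, adjusted p = 0.00378). Spry2, an induced inhibitor of FGF-ERK signalling, had 1.16 and 1.14 at day 7, against 2.40 and 3.48 in ES cells (-1.79 ± 0.36, adjusted p = 0.00545), and 3 of 13 FGF-ERK targets were lower and 0 higher. Txnip, an inhibitor of thioredoxin and glucose uptake, had 4.5 and 4.48 at day 7, against 2.24 and 2.59 in ES cells (2.07 ± 0.30, adjusted p = 0.000886), and Junb, an immediate-early factor, had 2.41 and 2.42 at day 7, against 3.69 and 4.06 in ES cells (-1.46 ± 0.16, adjusted p = 0.000241). With only the arrays of the groups compared in the fit, the calls of Bmp7 (adjusted p = 0.0668) and Spry2 (0.0629) were lost. With normexp the change of Magel2 was -0.89 and was not called (adjusted p = 0.0941).

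Genes of 2-cell-like cells, a rare state of ES cultures, were not called between day 7 and ES cells (0 of 6), but their changes were far from those of the Dazl-GFP line at day 12. Zscan4c changed by -1.35 at day 7, against 5.57 at day 12 and 2.01 at day 16 (difference -6.92 ± 0.66 against day 12, adjusted p = 0.000246). Of the 6 genes, 5 had a called difference against day 12, all lower at day 7, beside 2.25% of all genes. Against day 16, 3 of the 6 were called, all lower, beside 1.95% of all genes. On all 4 Stella-GFP arrays compared, 2 of the 6 were not well above background. These genes lie in families of near-identical copies, so signals may be shared between copies. On chromosome X, 59 of 551 genes with a symbol were called higher (10.7%) and 74 lower (13.4%), against 1154 (7.5%) and 2196 (14.2%) of 15446 genes on all chromosomes, as a description without a test. Of the 12 largest rises, 3 lay on X.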
